A study of Mus musculus with 6 samples.

Results

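The 9 genes described here encode receptors of 2 families, and were chosen by name. *Sorl1*, *Sort1*, *Sorcs1* and *Sorcs2* encode VPS10-domain sorting receptors, and *Lrp1*, *Lrp4*, *Lrp5*, *Lrp6* and *Lrp10* encode LDL-receptor-related proteins. They are 9 of the 54232 genes in the count files. *Sorl1* was picked out because it was already known to be lower with Tributyrin in these same mice, so its values in that comparison are given as a description and carry no test. The other genes, called the relatives of *Sorl1* below, were chosen by family. RNA of the heart ventricle was sequenced from 6 wild-type C57BL/6J mice, all fed a western diet (WD), 3 of them treated with Tributyrin and 3 with vehicle. Before treatment both groups had been on WD for 15 weeks. Tributyrin, a triglyceride that releases butyrate, was then needle-fed at 5 g/kg body weight, and vehicle in the same way, in cycles of 2 days on and 2 days off over 3 weeks. The sample labels name the vehicle PBS. Mice on normal chow were not analysed here, and the age at which these hearts were taken was not found in the labels or methods. Whether the mice of a group shared a cage or litter is not stated, and p-values measure only the spread between these samples.

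The libraries held between 20369746 and 32734485 counts on genes. Every library had few *Xist* counts (0 to 6) and many *Ddx3y* counts (1571 to 2559), the pattern of male mice. The sexes were therefore not mixed between groups, and the values cover males only, though the study used both sexes. Ventricular cardiomyocyte markers summed to between 1734783 and 1839481 normalized counts in all mice, where a normalized count is the count divided by the size factor of its library. Atrial markers summed to 4788 and 4540 normalized counts in vehicle replicates 1 and 2, against 1414 in vehicle replicate 3 and 815 to 1687 with Tributyrin, and all 6 of these markers had the lower mean with Tributyrin. Of the 1414 in vehicle replicate 3, 1046 came from the marker *Nppa*, which was left out of the sum that picked vehicle replicates 1 and 2 as atrial-rich. Values without these 2 vehicle libraries are therefore given for each receptor gene. Of 14133 genes left by the filter on low counts, 0% (0 genes) had an FDR under 10% by the quasi-likelihood test of edgeR (Benjamini-Hochberg adjusted), 4.25% had an unadjusted p under 0.05 and 2.28% had one with Tributyrin lower. Without the filter 0.653% of 25581 genes passed 10%. All 9 receptor genes passed the filter.

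VPS10-domain receptors carry cargo between the Golgi, the endosomes and the cell surface. SorLA, the product of *Sorl1*, joins a VPS10 domain to repeats of the LDL receptor type and is best known for returning the amyloid precursor protein from endosomes with the help of retromer. The LRP family takes up lipoproteins and proteases at the cell surface, and *Lrp5* and *Lrp6* encode the co-receptors through which Wnt ligands stabilise β-catenin. In the heart these pathways bear on the handling of lipoprotein lipase, on the insulin-responsive glucose transporter and on matrix turnover.

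The promoter of *Sorl1* is shown because *Sorl1* is the gene the comparison turns on, and that of *Lrp10* because it was the steadiest of the relatives. Each window holds the 250 bases before the RefSeq transcription start in GRCm38.p6, written 5′ to 3′ on the strand of the gene. Capitals mark a GC box, searched as GGGCGG on both strands (CCGCCC on the other). The *Sorl1* window is chr9:42124298-42124547 on the minus strand, and the *Lrp10* window is chr14:54463897-54464146 on the plus strand.
Sorl1: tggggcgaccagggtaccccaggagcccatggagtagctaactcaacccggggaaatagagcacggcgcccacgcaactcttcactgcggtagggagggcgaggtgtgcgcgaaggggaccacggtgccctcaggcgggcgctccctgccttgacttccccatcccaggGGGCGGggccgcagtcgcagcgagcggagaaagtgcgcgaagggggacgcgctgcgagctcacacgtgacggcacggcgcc
Lrp10: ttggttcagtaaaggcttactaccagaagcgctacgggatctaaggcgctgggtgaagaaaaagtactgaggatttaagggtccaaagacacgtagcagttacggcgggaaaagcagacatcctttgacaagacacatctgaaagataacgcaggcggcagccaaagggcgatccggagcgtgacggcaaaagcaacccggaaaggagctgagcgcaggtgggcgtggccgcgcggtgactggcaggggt

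The *Sorl1* window held 26 CpG dinucleotides and 69.6% G and C, with 1 GC box. The *Lrp10* window held 18 CpG dinucleotides and 55.6% G and C, with 0 GC boxes. Over 32536 RefSeq windows of the same length the median was 6 CpG dinucleotides and 52.4% G and C, and 33% of them held a GC box. Neither window held a CCAAT box (CCAAT or ATTGG), found in 33.8% of windows, or a TATA box (TATAAA or TTTATA), found in 12.3%. A window was at hand for 4 of the 9 genes, and those of *Lrp1* and *Sorcs1* held 1 and 2 GC boxes. *Sorl1* has a further RefSeq start inside the gene, whose window held 9 CpG dinucleotides and 0 GC boxes.

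*Sorl1* was lower in every mouse given Tributyrin than in every mouse given vehicle. The gene (ENSMUSG00000049313) lies on the minus strand of chromosome 9 of GRCm38, from 41964720 to 42124297, and its exons cover 11321 bases. The vehicle mice had 390, 440 and 437 normalized counts, with a mean of 422 ± 28.1 (SD, n = 3). The Tributyrin mice had 213, 291 and 280, with a mean of 261 ± 41.9 (SD, n = 3), a difference of -38.1% from vehicle. Tributyrin replicate 1 was the lowest of all, and the vehicle mice lay close together. The log2 fold change, Tributyrin over vehicle, was -0.69 (standard error 0.13). These values rest on 228 to 567 reads per library, and the relative SD from counting is 6.62% at the lowest of them. With the 2 atrial-rich vehicle libraries left out the log2 fold change was -0.75 (standard error 0.20), from 1 vehicle mouse against 3. In bulk RNA, fewer cells that express *Sorl1* and less *Sorl1* RNA per cell cannot be told apart. The antisense gene *Gm16214*, which overlaps exons of *Sorl1*, had at most 2 counts in a library.

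**Figure D1:**
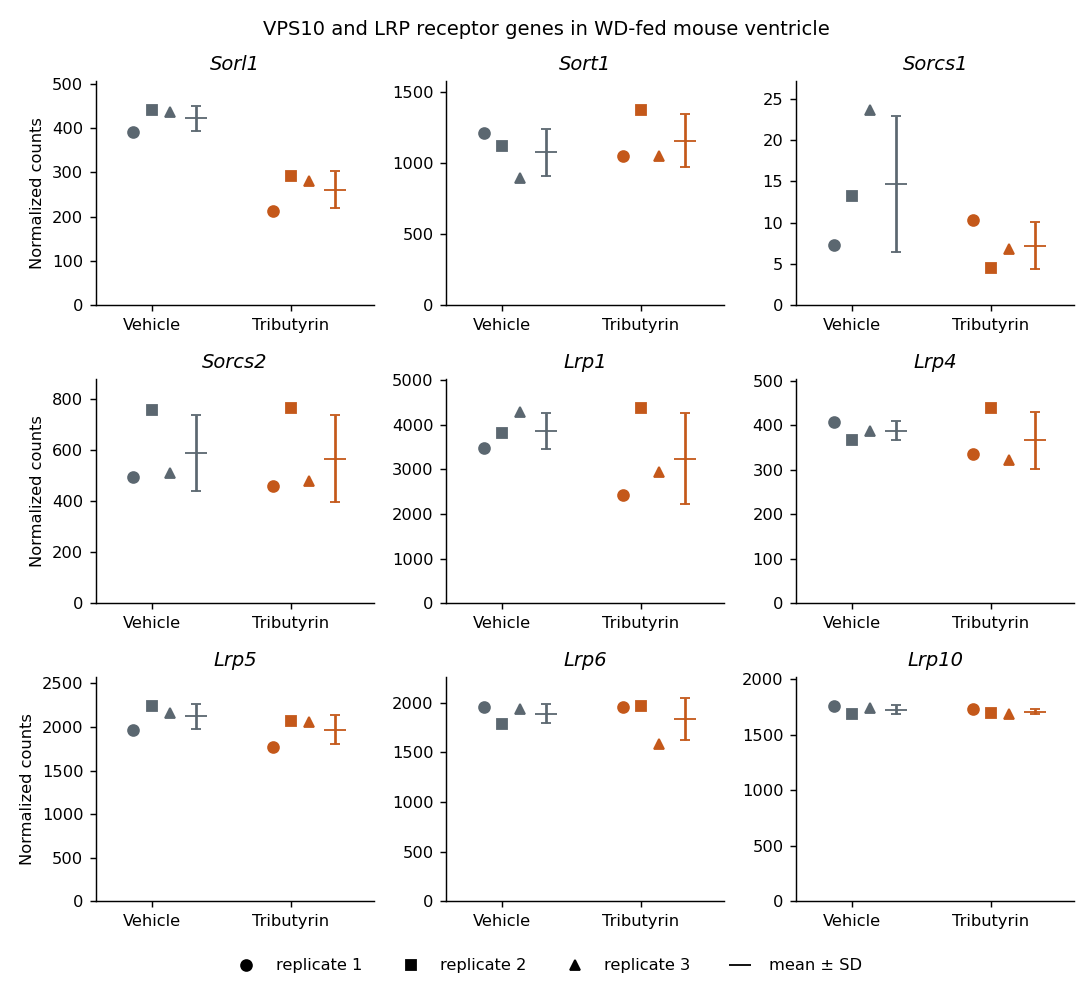
Normalized counts of the 9 receptor genes (vertical axes from 0, 1 panel per gene) in vehicle (grey) and Tributyrin (orange) mice, with the symbol giving the replicate number and bars the mean ± SD of 3 mice. Of these panels, that of *Sorl1* is the one in which the groups do not overlap (390 to 440 against 213 to 291), and *Lrp10* varies least.

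Among the 8 relatives the groups overlapped for every gene, and of the 9 genes *Sorl1* was the 1 whose groups did not. Over all genes tested, 8.91% had groups that did not overlap, 4.65% with Tributyrin lower and 4.26% with Tributyrin higher. Nothing is read from this for *Sorl1*, which was chosen from this comparison. Of the 8 relatives, 0 passed an FDR of 10% by edgeR, limma-voom or DESeq2, beside 0.0835% of all genes to which DESeq2 gave an adjusted p (it gave none to *Sorcs1*). An unadjusted p under 0.05 from edgeR was found for 0 of the 8, beside 4.25% of all genes. Each relative had an adjusted p of 0.999 (edgeR, Benjamini-Hochberg). Estimates lay below 0 for 7 of the 8 relatives, against 50.4% of all genes tested, but 5 of the 8 changed sign when single mice were left out.

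*Sort1* (ENSMUSG00000068747, chromosome 3, 108284082 to 108361511, plus strand) encodes sortilin, which binds progranulin and lipoprotein lipase and is found in vesicles that hold the insulin-responsive glucose transporter. The vehicle mice had 1214, 1116 and 893 normalized counts and the Tributyrin mice 1048, 1370 and 1050. Tributyrin replicate 2 was highest and vehicle replicate 3 lowest, and the groups overlapped. Its log2 fold change was 0.11 (standard error 0.13), the 1 estimate above 0 among the 9 genes, with a 95% interval from -0.19 to 0.40. It became -0.01 without vehicle replicate 3, -0.04 without Tributyrin replicate 2, and 0.37 without the atrial-rich vehicle libraries, so that its direction was not settled.

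*Sorcs2* (ENSMUSG00000029093, chromosome 5, 36017180 to 36398139, minus strand) encodes a receptor for pro-neurotrophins. It had 495, 758 and 508 normalized counts with vehicle and 459, 763 and 477 with Tributyrin. In each group 1 mouse stood well above the others, replicate 2 in both cases, and the rest lay between 459 and 508. The estimate was -0.05 on the log2 scale (standard error 0.21), with a 95% interval from -0.52 to 0.42. It was 0.16 without the atrial-rich libraries. Replicate 2 of each group also had the most adipocyte transcripts, with 62.8 normalized counts summed over 6 adipocyte markers in vehicle replicate 2 and 89.5 in Tributyrin replicate 2, against 17.2 to 22.9 in the other libraries. Without both of these libraries the log2 fold change was -0.10 (standard error 0.11), and the part of adipose tissue in the *Sorcs2* values was not tested.

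*Sorcs1* (ENSMUSG00000043531, chromosome 19, 50143299 to 50678646, minus strand), a sorting receptor known mainly from neurons and islets, was barely detected, with 5 to 19 reads per library. The vehicle mice had 7.28, 13.2 and 23.6 normalized counts and the Tributyrin mice 10.3, 4.57 and 6.88. Its estimate was -0.97 on the log2 scale (standard error 0.52), with a 95% interval from -2.11 to 0.18. It was -0.52 without vehicle replicate 3, -1.32 without Tributyrin replicate 1 and -1.69 (standard error 0.65) without the atrial-rich vehicle libraries, so that its size rested on single mice. The relative SD from counting was 44.7% at the lowest count. *Sorcs3*, the remaining gene of this family, had 0 counts in every library.

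*Lrp1* (ENSMUSG00000040249, chromosome 10, 127538161 to 127621148, minus strand) encodes a large endocytic receptor that clears proteases, their inhibitors and matrix proteins. It had 3488, 3809 and 4282 normalized counts with vehicle and 2421, 4368 and 2939 with Tributyrin. Tributyrin replicates 1 and 3 lay below every vehicle mouse, while Tributyrin replicate 2 lay above them all. The estimate was -0.25 on the log2 scale (standard error 0.18), with a 95% interval from -0.65 to 0.15. Without Tributyrin replicate 2 it was -0.53, and without Tributyrin replicate 1 it was -0.07, so that the size of the estimate rested on single mice. It was -0.54 without both adipocyte-rich libraries and -0.40 without the atrial-rich ones.

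*Lrp4* (ENSMUSG00000027253, chromosome 2, 91457511 to 91513779, plus strand) encodes the agrin receptor of the neuromuscular synapse. It had 408, 366 and 388 normalized counts with vehicle and 336, 438 and 323 with Tributyrin, where replicate 2 again stood highest. Its difference was -0.08 on the log2 scale (standard error 0.13), with a 95% interval from -0.36 to 0.21, -0.27 without both adipocyte-rich libraries and -0.08 without the atrial-rich ones. *Lrp10* (ENSMUSG00000022175, chromosome 14, 54464137 to 54471497, plus strand) encodes a receptor that cycles between the Golgi and endosomes. It had 1758, 1685 and 1739 normalized counts with vehicle and 1733, 1700 and 1689 with Tributyrin, so that all 6 mice lay within a narrow range. Its log2 fold change was -0.02 (standard error 0.066), with a 95% interval from -0.16 to 0.13, and -0.03 without the atrial-rich libraries.

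The Wnt co-receptors *Lrp5* and *Lrp6* gave somewhat wider intervals than *Lrp10*. *Lrp5* (ENSMUSG00000024913, chromosome 19, 3584828 to 3686564, minus strand) had 1964, 2237 and 2159 normalized counts with vehicle and 1774, 2070 and 2059 with Tributyrin. Tributyrin replicate 1 was lowest and the groups overlapped. Its log2 fold change was -0.11 (standard error 0.085), with a 95% interval from -0.30 to 0.08. Without Tributyrin replicate 1 it was -0.03, without vehicle replicate 2 it was -0.07, and without the atrial-rich libraries it was -0.14. *Lrp6* (ENSMUSG00000030201, chromosome 6, 134446476 to 134566965, minus strand) had 1955, 1780 and 1932 normalized counts with vehicle and 1951, 1963 and 1588 with Tributyrin, of which replicate 3 was the low one. Its log2 fold change was -0.04 (standard error 0.094), with a 95% interval from -0.25 to 0.17. It was 0.06 without Tributyrin replicate 3 and -0.08 without the atrial-rich libraries.

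**Figure D2:**
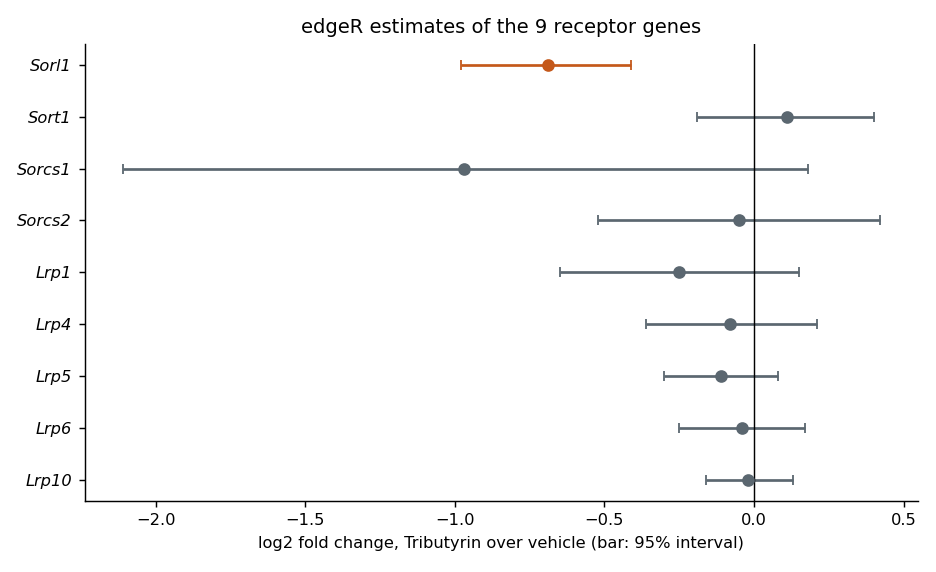
Log2 fold changes, Tributyrin over vehicle, of the 9 receptor genes from edgeR (horizontal axis), with bars for the 95% interval over 3 mice per group. *Sorl1* (orange, shown as a description) is at -0.69. Its bar is not a test, since *Sorl1* was chosen from this comparison. The 95% intervals of the 8 relatives all include 0, the widest being that of *Sorcs1*.

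Per length, *Sorl1* was one of the less abundant genes of the group. Levels were compared between genes as RPKM, reads normalised for the length of the exons and the total of the library. *Lrp10* had the highest level, from 13.6 to 15.4 RPKM over the 6 libraries, and lay above every value of *Lrp5*, which ran from 6.80 to 9.05. *Lrp5* and *Lrp1* (5.10 to 9.55) overlapped, and *Lrp5* was the higher of the pair in 4 of 6 libraries. *Sort1* (4.66 to 6.90) overlapped *Lrp1* above it and *Lrp6* (4.16 to 5.58) below it. *Sorcs2* followed with 1.94 to 3.39 RPKM, apart from its neighbours on both sides. *Lrp4* (1.10 to 1.59) and *Sorl1* (0.703 to 1.53) overlapped, and *Lrp4* was the higher in 4 of 6 libraries. *Sorcs1* was last, from 0.0206 to 0.111 RPKM.

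**Figure D3:**
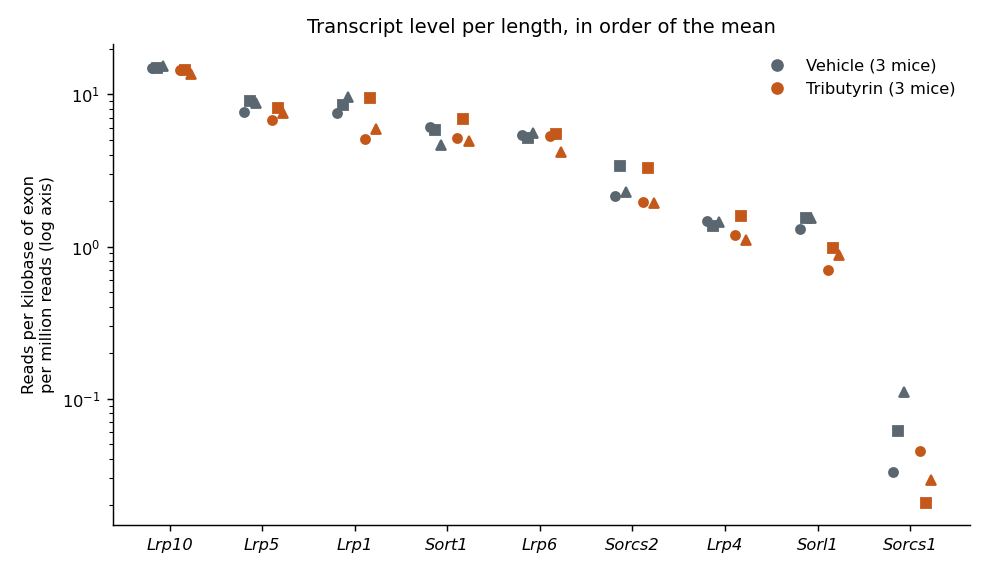
Transcript level in RPKM, reads normalised for exon length and library total (log axis) for the 9 genes in order of their mean, 1 point per mouse, vehicle grey and Tributyrin orange. *Lrp10* lies at 13.6 to 15.4, *Sorl1* near *Lrp4* with vehicle and below it with Tributyrin, and *Sorcs1* far below the rest.

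The place of *Sorl1* in this order differed between the groups. With vehicle its level was 1.46 ± 0.127 RPKM (SD, n = 3), beside 1.44 ± 0.0562 for *Lrp4*. With Tributyrin it was 0.856 ± 0.14 RPKM (SD, n = 3), beside 1.29 ± 0.258 for *Lrp4*. The log2 ratio of *Sorl1* to *Lrp4* was -0.18, 0.16 and 0.07 in the vehicle mice and -0.76, -0.70 and -0.32 in the Tributyrin mice, with no overlap. Against *Lrp5* the log2 ratio was -2.55, -2.56 and -2.52 with vehicle, the tightest of the ratios, and -3.27, -3.05 and -3.10 with Tributyrin. Against *Lrp10* it was -3.52, -3.28 and -3.33 with vehicle and -4.37, -3.89 and -3.94 with Tributyrin. A ratio within a library does not depend on how the library was scaled, but all of these ratios carry the values of *Sorl1* that led to its choice. The ratios to *Sort1*, *Lrp1* and *Lrp6* did not overlap between the groups either, while those to *Sorcs1* and *Sorcs2* did.

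Of the summed RPKM of the 4 VPS10-domain genes, *Sort1* took the largest part in every mouse. *Sorl1* took 13.7%, 14.2% and 17.8% of it in the vehicle mice and 8.94%, 8.73% and 11.3% in the Tributyrin mice. *Sort1* took 57.3% ± 5.54 in vehicle mice against 63.6% ± 2.07 with Tributyrin (SD, n = 3 each). Its values were 63.7%, 53.8% and 54.3% with vehicle and 65.7%, 61.6% and 63.5% with Tributyrin, so the groups overlapped. The sum includes *Sorl1*, chosen for being lower, and a lower *Sorl1* by itself raises the other shares. *Sorcs2* stood at 26.8% ± 4.56 and 26.4% ± 2.72 (SD, n = 3 each).

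Genes whose values followed those of *Sorl1* most closely over the 6 libraries were ranked by Pearson's r of log2 CPM, as a description. They were *Diaph1* (r = 0.989), which encodes a formin that builds actin filaments, *C530008M17Rik* (0.987), *Ccdc68* (0.987), *2310022B05Rik* (0.985) and *Boc* (0.984), a Hedgehog co-receptor. *Diaph1* had 990, 996 and 998 normalized counts with vehicle and 845, 915 and 890 with Tributyrin, a much smaller difference in the same order of mice within the Tributyrin group. The most opposite were *Cngb3* and *Cdc123* (both r = -0.994). *Ccdc68* had few reads, at 6.55 to 28.7 normalized counts. The points share their libraries and the difference between groups, and 40 of 14132 genes had r above 0.95.

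With the group means removed, the genes most like *Sorl1* were *Sptlc2*, *Dab2ip* and *Mgat5b* (each r = 0.998), and *Clstn2* and *Pald1* (both r = 0.997). Few values are free to vary after this step, so a high r is easily reached, and 170 of 14132 genes had r above 0.95. *Mgat5b* (2.81 to 21.9 normalized counts) and *Clstn2* (4.68 to 26.4) also had few reads. *Sptlc2* encodes a subunit of the enzyme that starts sphingolipid synthesis. It had 470, 525 and 526 normalized counts with vehicle and 402, 545 and 516 with Tributyrin, so that replicate 1 was lowest in both groups, as for *Sorl1*. Of the relatives, *Lrp5* was closest by this measure (r = 0.957), followed by *Lrp1* (0.822), and *Lrp10* was most unlike it (-0.631). Over the 6 libraries without that step the closest relatives were *Lrp5* (r = 0.793) and *Lrp1* (0.725).

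Markers of other cell types were set beside *Sorl1*, since leukocytes and adipocytes are known to express it. The summed markers overlapped between the groups for each of the 13 cell types listed. Macrophage markers summed to between 3905 and 4864 normalized counts with vehicle and between 3615 and 4918 with Tributyrin, and 7 of 7 had the lower mean with Tributyrin. Endothelial markers summed to between 16424 and 16788 and between 15915 and 17244. T and NK cell markers summed to at most 40.2 normalized counts in a mouse, B cell markers to at most 50.9, neutrophil markers to at most 22.9 with *Ly6g* at 0, and adipocyte markers to at most 89.5. Erythroid markers were highest in Tributyrin replicate 1, at 24730 normalized counts against 10039 to 18285 in the other mice, and this was the mouse with the least *Sorl1*. The next highest was vehicle replicate 3 (18285), with *Sorl1* at 437. Tributyrin replicate 2 had the lowest sum of erythroid markers (10039), with *Sorl1* at 291. The part of erythroid transcripts in the *Sorl1* values was not tested. Without Tributyrin replicate 1 the log2 fold change of *Sorl1* was -0.56.

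**Figure D4:**
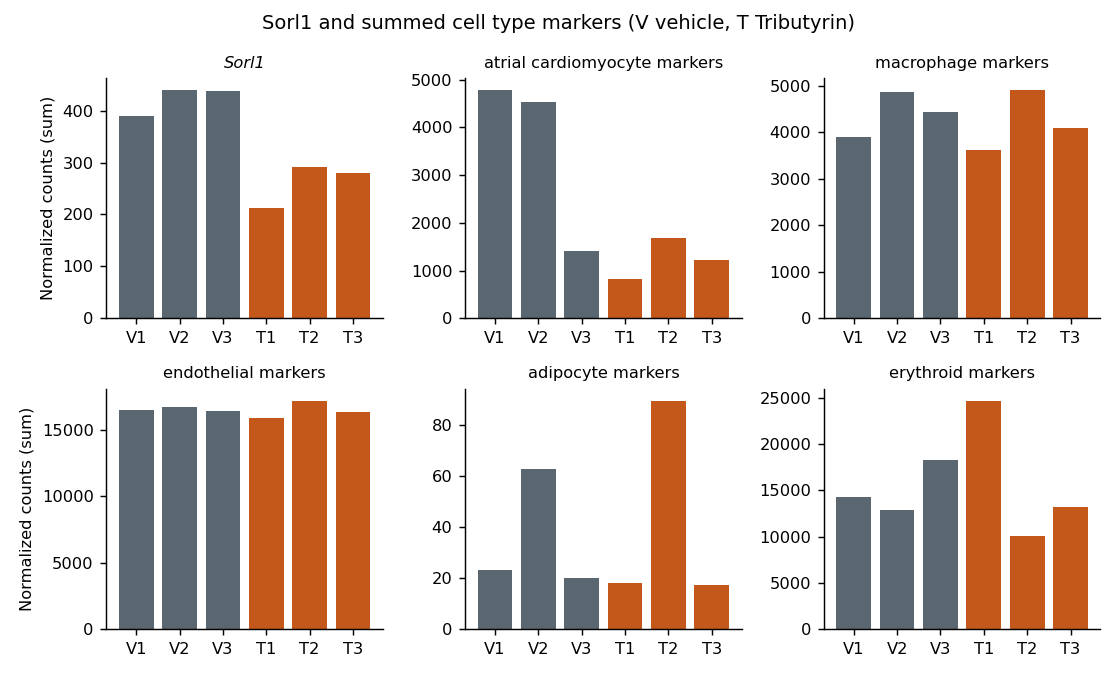
Normalized counts of *Sorl1* and summed normalized counts of markers of 5 cell types (vertical axes from 0) in each mouse, vehicle grey (V1 to V3) and Tributyrin orange (T1 to T3). The atrial markers are high in V1 and V2, while *Sorl1* is at 440 in V2 and 437 in V3. T1 has the least *Sorl1* and the most erythroid transcripts, and V3 has the next most erythroid transcripts.

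The genes that act with these receptors were taken from 10 lists with 141 entries in all. Of the genes listed, 7 had 0 counts in every library and 114 were tested. Their median log2 fold change was -0.04, beside -0.00 for all genes tested. Of the 114, 42 were higher and 72 lower, where 50.4% of all genes tested were lower. The lists were chosen with earlier results of these data known, so nothing is read from these counts. At an FDR of 10%, 0 passed by edgeR with Benjamini-Hochberg adjustment, and 0 by limma-voom or DESeq2. An unadjusted p under 0.05 was found for 4 of them, *Dkk3*, *Fzd1*, *Thbs1* and *Lpl*, beside 4.25% of all genes. The groups did not overlap for 7 of the 114, beside 8.91% of all genes. Of these, *Dkk3*, *Fzd1* and *Thbs1* were lower (3 genes) and *Lpl*, *Aph1b*, *Gsk3a* and *Tcf7* higher (4 genes) with Tributyrin, *Tcf7* being named after its values were seen.

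The machinery that moves SorLA and sortilin gave small estimates. Of 13 genes of retromer, retriever and the sorting nexins, 4 were estimated higher and 9 lower, and the log2 fold changes ran from -0.09 to 0.12. *Snx3*, a cargo adaptor of retromer, had 2706 ± 112 normalized counts with vehicle against 2643 ± 196 with Tributyrin (SD, n = 3 each). *Vps26a*, a subunit of the retromer core, had 1963 ± 77.9 against 2126 ± 112 (SD, n = 3 each). Its paralog *Vps26b* had a log2 fold change of -0.09 (standard error 0.086). Of the 12 Golgi and endocytic adaptors 3 were estimated higher and 9 lower, and they ran from -0.15 for *Dab2*, which binds the tails of LDL receptor proteins, to 0.13. *Gga1*, which binds the tails of sorting receptors at the Golgi, had 1831 ± 68.2 normalized counts with vehicle against 1818 ± 25.2 (SD, n = 3 each). *Ap1b1*, a subunit of the clathrin adaptor of the Golgi, was at -0.01 and *Gga3* at -0.13. Of the 12 chaperones and proteases 8 were estimated higher and 4 lower, and they ran from -0.09 for *Bace1*, the β-secretase, to 0.11 for *Aph1b*, a γ-secretase subunit. *Lrpap1*, the chaperone of the LRP family, was at 0.08 (standard error 0.081) and *Furin*, which cleaves LRP1 and the VPS10-domain receptors from their precursors, at -0.07 (0.070). The medians of these 3 lists were -0.02, -0.03 and 0.02.

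Of 12 cargo proteins of VPS10-domain receptors, 5 were estimated higher and 7 lower, with a median of -0.04. *Lpl*, which encodes lipoprotein lipase, had 122741, 115411 and 117616 normalized counts with vehicle and 131066, 142608 and 126814 with Tributyrin. All Tributyrin mice lay above the vehicle mice. It differed by 0.17 on the log2 scale (standard error 0.074) with an adjusted p of 0.999 from edgeR. The difference was 0.10 without both adipocyte-rich libraries, 0.10 when scaled by library size alone and 0.18 without the atrial-rich libraries. Tributyrin replicate 2, the highest in *Lpl*, was also the highest in adipocyte transcripts. Vehicle replicate 2, the next highest in adipocyte transcripts, had the least *Lpl* of all mice (115411). The part of adipocyte transcripts in the *Lpl* values was not tested. *Psap*, the precursor of the saposins and a lysosomal cargo of sortilin, was at 0.04 (standard error 0.073). *App*, which encodes the amyloid precursor protein, had 4371, 4501 and 4424 normalized counts with vehicle and 3430, 4742 and 4139 with Tributyrin. The vehicle mice lay close together and the Tributyrin mice on both sides of them, with replicate 1 the low one.

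Of the ligands of LRP1, 12 of 13 were tested, and 4 were estimated higher and 8 lower, with a median of -0.06. *Thbs1*, which encodes thrombospondin-1, had 583, 527 and 414 normalized counts with vehicle and 249, 399 and 299 with Tributyrin, and the groups did not overlap. Its log2 fold change was -0.68 (standard error 0.18) with an adjusted p of 0.999 from edgeR. Without the atrial-rich libraries it was -0.39 (standard error 0.25). *Thbs1* was, like *Sorl1*, already known to be lower with Tributyrin in these mice. *Mmp2*, a gelatinase, was at -0.28 (standard error 0.13), while *Apoe*, the apolipoprotein that LRP1 takes up, was at 0.05 (0.093) and *Calr*, which encodes calreticulin, at 0.06 (0.074).

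Of the other receptors of both families, 9 of 10 were tested, with a median of -0.18, 3 higher and 6 lower. *Vldlr*, the receptor for triglyceride-rich lipoproteins in heart muscle, was the most abundant of them per length (mean 42.7 RPKM), with 11163 ± 583 normalized counts in vehicle mice against 11395 ± 1782 with Tributyrin (SD, n = 3 each). *Lrp3* had a log2 fold change of -0.01 (standard error 0.099), *Lrp11* of -0.33 (0.15) and *Lrp8*, with few reads, of -0.75 (0.52). Of the agrin receptor complex, in which LRP4 acts, the 3 tested genes *Agrn*, *Dok7* and *Rapsn* ran from -0.16 to -0.07.

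Around the Wnt co-receptors, 15 of 26 Wnt and Frizzled genes were tested, with 6 higher, 9 lower and a median of -0.03. Of 22 inhibitors and enhancers 11 were tested, with 3 higher, 8 lower and a median of -0.11. *Fzd1*, a Frizzled receptor, had 298, 283 and 276 normalized counts with vehicle and 216, 204 and 211 with Tributyrin, with a small spread in both groups and no overlap. It differed by -0.44 on the log2 scale (standard error 0.10), with an adjusted p of 0.999 from edgeR. It was -0.39 without the atrial-rich libraries. *Fzd4*, the most abundant Frizzled receptor per length, had 2417 ± 175 normalized counts in vehicle mice against 2327 ± 17.6 with Tributyrin (SD, n = 3 each). *Fzd2* was at -0.29 (standard error 0.16) and *Fzd6* at 0.03 (0.091).

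*Dkk3* belongs to the Dickkopf family but, unlike *Dkk1*, is not known as a strong inhibitor at LRP5 and LRP6. It had 489, 493 and 321 normalized counts with vehicle and 68.3, 118 and 295 with Tributyrin. The groups did not overlap, though vehicle replicate 3 and Tributyrin replicate 3 lay close. The log2 fold change was -1.47 (standard error 0.40) with an adjusted p of 0.999 from edgeR, and -1.03 (standard error 0.57) without the vehicle libraries rich in atrial transcripts, which are also its highest. Without Tributyrin replicate 3, the Tributyrin mouse nearest to vehicle, it was -2.22 with an adjusted p of 0.0331 from edgeR. With any other single mouse left out it lay between -1.64 and -1.10, with an adjusted p of 0.45 or more from edgeR. *Dkk1* and *Dkk4* had 0 counts in every library. *Kremen1*, a receptor for Dickkopf proteins, was at -0.12 (standard error 0.088), and the R-spondin receptors *Lgr4* and *Lgr6* at -0.13 (0.084) and -0.08 (0.11).

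Of the β-catenin pathway and its targets, 15 of 17 genes were tested, with 6 higher, 9 lower and a median log2 fold change of -0.04. *Ctnnb1*, which encodes β-catenin, had 7354 ± 336 normalized counts in vehicle mice against 6846 ± 658 with Tributyrin (SD, n = 3 each). *Axin2*, a common target of the pathway, had 168, 129 and 186 normalized counts with vehicle and 147, 125 and 109 with Tributyrin. The groups overlapped, and its log2 fold change was -0.33 (standard error 0.18). *Gsk3a* was at 0.07 (standard error 0.066).

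**Figure D5:**
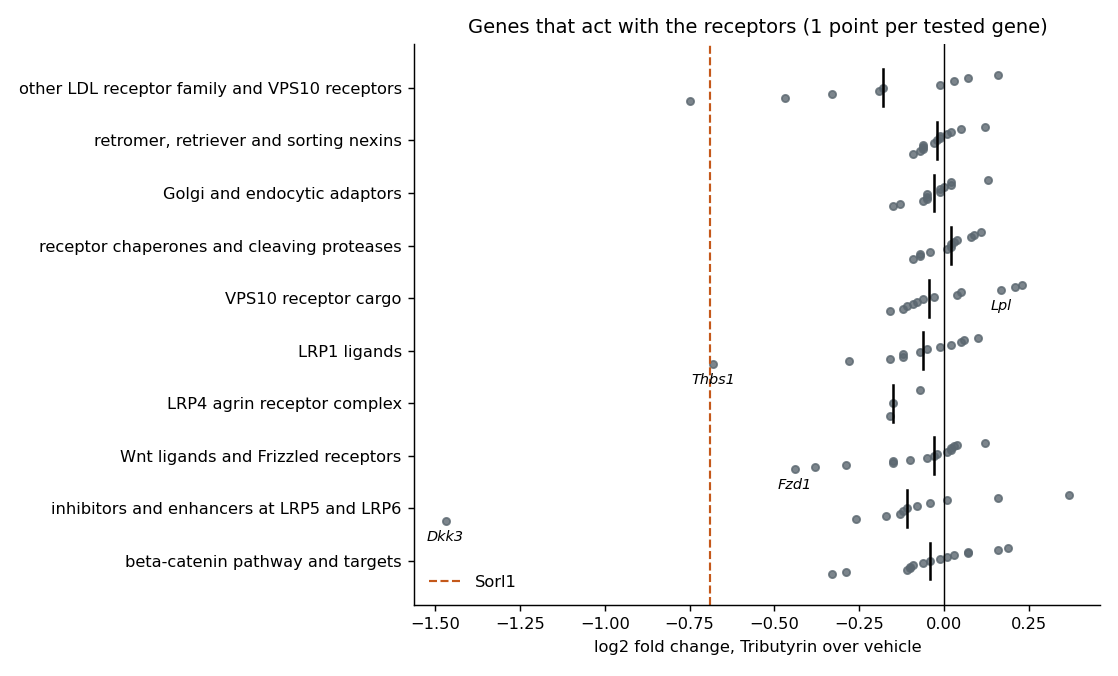
Log2 fold changes, Tributyrin over vehicle (horizontal axis), of the 114 tested genes that act with the receptors, 1 point per gene in 10 lists, with a black bar at the median of each list and a dashed line at *Sorl1* (-0.69). Most points lie near 0, and *Dkk3* (-1.47), *Thbs1* (-0.68) and *Fzd1* (-0.44) lie to the left.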

How the data were processed

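Stranded mRNA libraries of heart ventricle were sequenced as single-end reads from 6 mice, 3 per group. Per the labels and the study's methods, the authors trimmed adapters (cutadapt 1.13), removed poor and rRNA reads, aligned with STAR to mm10 and counted reads per gene with htseq-count (HTSeq 0.6.1p1), and deposited these counts without normalization. Not given in the sources used here were the STAR version, the annotation release and the strand option of htseq-count. Gene names, positions and exon lengths came from GENCODE M21 (GRCm38, the same build), which matched 54079 of 54232 identifiers, and promoter windows from RefSeq (GRCm38.p6). Lines that name no gene numbered 0.

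The groups were compared over all genes with edgeR 4.0.16 in R 4.3.3 (quasi-likelihood test, TMM scaling, filterByExpr with minimum count 10 and minimum total 15, Benjamini-Hochberg adjustment), with thresholds at 10% and 5% as in the study. Standard errors are the log2 fold change over the root of the test statistic, and 95% intervals use its degrees of freedom. Normalized counts are counts over median-of-ratios size factors. Log2 CPM for the ranking of genes used a prior count of 2. DESeq2 1.42.0 and limma-voom (limma 3.58.1) were alternatives, with 2 other scalings, 2 other filters, the replicate number as a block, and each mouse left out. Leaving out the libraries rich in atrial or adipocyte transcripts was added after the data were seen. Figures were drawn with Python 3.11.15 and matplotlib 3.10.9. The edgeR step was tested on simulated data. No pair of libraries agreed within sampling noise (chi-square per degree of freedom from 6.67 to 28.2).

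The receptor genes and the lists were chosen with earlier results of these data known. The genes named were the 9 receptors, in each list the 2 tested genes highest per length and the 2 with the smallest unadjusted p, the genes most and least like *Sorl1*, and markers. Genes at 0 in every library were named outside this rule, after their values were seen.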

Additional observations from a re-analysis of the deposited data

How the results depend on the processing

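At an FDR of 10% the count of genes called, 0 with edgeR as reported, moved to 167 without the filter on low counts, 11 by DESeq2, 2 with the replicate block, 2 without both libraries rich in adipocyte transcripts, and between 0 and 3 with each mouse left out. At 5% it moved from 0 to 140, 5 and 2 without the filter, by DESeq2 and without the adipocyte-rich libraries, and lay between 0 and 3 with each mouse left out. Of the 9 receptor genes 1, *Sorl1*, was called without the filter and 1 by DESeq2, beside 0.653% and 0.0835% of all genes. *Sorl1* was chosen from this comparison, so nothing is read from either call. Its log2 fold change was -0.69 in both and between -0.78 and -0.56 with each mouse left out. Without the filter the test for *Sorl1* had 102324 degrees of freedom, against 10.3 with it. Of the list genes 2 passed 10% without the filter (*Dkk3* at -1.47 and *Thbs1* at -0.68), beside 0.653% of all genes. Between 0 and 1 passed with each mouse left out. *Thbs1* was already known to be lower, so nothing is read from its call. The standard error of *Dkk3* was 0.14 without the filter, against 0.40 with it. Direction changed for *Sort1* (-0.04 to 0.21 with each mouse left out, and -0.01 without the adipocyte-rich libraries), *Sorcs2* (-0.33 to 0.18, and 0.16 without the atrial-rich vehicle libraries), *Lrp4* (-0.23 to 0.01), *Lrp6* (-0.09 to 0.06) and *Lrp10* (-0.03 to 0.00). *Lrp1* and *Lrp5* kept their direction in all 15 alternatives run for each, and *Sorcs1* in the 12 that gave it a value. The size for *Sorcs1* ranged from -1.69 to -0.52 and that for *Lrp5* from -0.18 to -0.03. *Sorl1* also kept its direction in all 15. Its groups did not overlap and it was chosen for being lower, so a reversal was hardly possible and nothing is read from this. Why DESeq2's call differs was not tested. Same-numbered mice deviated together with correlations of 0.21, 0.04 and 0.01, which do not show a pairing, and with the replicate block *Sorl1* was at -0.70. *Sorcs1* did not pass the stricter filter or the filter in the fits without vehicle replicate 2. Scaling by library size alone moved the median of all genes to -0.07 and *Sorl1* to -0.77.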

Other observations

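Among the cell types not described above, all 6 Schwann cell markers had the higher mean with Tributyrin, with sums of 428, 402 and 371 normalized counts with vehicle and 470, 479 and 407 with Tributyrin, and the groups overlapped. Fibroblast markers had the lower mean for 5 of 7 genes, and their sums lay between 22805 and 25772 with vehicle and between 20409 and 25178 with Tributyrin. Smooth muscle and pericyte markers had the higher mean with Tributyrin for 6 of 8 genes. Their sums lay between 30315 and 31103 with vehicle and between 30327 and 34781 with Tributyrin, and the groups overlapped. Epicardial markers summed to between 284 and 651 normalized counts over the 6 mice. None of these sums was tested.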
